A study of Mus musculus with 4 samples.

Results

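Pleiotrophin (Ptn) and midkine (Mdk), the 2 ligands of a small family of heparin-binding growth factors, were followed together with 8 genes of their reported receptors, Ptprz1, Alk, Ptprs, Sdc1, Sdc3, Sdc4, Ncl and Lrp1. The genes were taken by symbol, and all 10 were found among the 21993 genes of the deposited tables. The tables come from RNA sequencing of mouse cells that the labels give as uterine NK cells, sorted by CD45 and NK1.1 and against CD3, at gd11.5 (the gestational day) in females mated with B6 males. The groups were 2 libraries of Ncr1Cre mice, in which Cre recombinase is driven from the NK-cell gene Ncr1 and acts on a floxed allele, and 2 libraries of control mice, which carry the same floxed allele without Cre. The labels do not say whether the libraries of a genotype came from separate or pooled mice, so p-values measure only how far these libraries differ, which may be technical.

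Pleiotrophin and midkine are small secreted proteins that bind the sulfated sugar chains of proteoglycans and so act close to the cells that make them. Both are best known from the developing nervous system, where they bind the chondroitin sulfate proteoglycan PTPRZ1 and inhibit its phosphatase, and both also bind syndecans, nucleolin and the endocytic receptor LRP1. In the uterus they are studied as growth-promoting factors of the tissue around the conceptus, and pleiotrophin has been described as a product of decidual NK cells.

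Levels are given in FPKM, fragments scaled by transcript length and by library size, which are per length and so can be set side by side between genes. The low values imply about 22500000 to 26100000 fragments in the Ncr1Cre libraries and 21100000 to 38600000 in the control libraries, at which 1 fragment on 1 kb of transcript is worth 0.0259 to 0.0473 FPKM. Differences were tested with limma on log2(FPKM + 1) over the 11762 genes that averaged 1 FPKM or more, and a gene was called at a Benjamini-Hochberg adjusted p under 0.05. Log2 fold changes are Ncr1Cre minus control on that scale and understate the change of low genes.

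The defining genes of NK cells were near 0 in both genotypes. The values of Ncr1 were 0 and 0.15 FPKM in Ncr1Cre against 0.14 and 0.36 FPKM in control, and Klrb1c, the gene of NK1.1, at 0.92 and 0.67 FPKM against 0.45 and 0.97 FPKM. The 17 genes of an NK-cell list summed to 40.8 to 42.0 FPKM in Ncr1Cre and 28.7 to 29.3 FPKM in control, with 3 of 6 tested genes higher and 0 lower, and were led by Il2rb and Gzmb. Beside this count and those of the lists below, 48.5% of all genes tested were called, 30.9% higher and 17.6% lower. Cd3e, against which the cells were sorted, was at most 0.134 FPKM in all 4 libraries. Ptprc, the gene of CD45, stood at 4.39 and 5.16 FPKM in Ncr1Cre against 2.89 and 2.57 FPKM in control (log2 fold change 0.63, limma adjusted p = 0.0103). The genes that define the labelled cell type were thus low, while genes of other cell types were abundant. Genes of decidual stroma and fibroblasts, led by Col1a1 and Sparc, summed to 14984 to 15026 FPKM in Ncr1Cre and 33570 to 34064 FPKM in control. Of the 16, 14 were lower and 1 was higher. The higher gene was Prl8a2, at 21.9 and 24.7 FPKM in Ncr1Cre against 3.35 and 4.12 FPKM in control (log2 fold change 2.36). Genes of smooth muscle, led by Des and Tagln, summed to 215 to 222 FPKM in Ncr1Cre and 595 to 607 FPKM in control, with 0 of 8 tested higher and 8 lower. Genes of epithelium, led by Prap1 and Lcn2, summed to 51514 to 54843 FPKM in Ncr1Cre and 10486.5 to 10623 FPKM in control, with 13 of 13 higher. Of the smaller sums, those of macrophages and dendritic cells (102.1 to 103 FPKM in Ncr1Cre against 30.3 to 32.5 FPKM in control), endothelium (37.4 to 38.7 against 20.8 to 21.1 FPKM), trophoblast (1043 to 1180 against 344 to 394 FPKM) and erythroid cells (666 to 784 against 69.2 to 77.3 FPKM) were also larger in Ncr1Cre, with 8 of 9, 4 of 7, 6 of 6 and 4 of 4 tested genes called higher and only 1, of endothelium, lower. The T and B cell genes summed to under 1 FPKM in every library. Gcm1 and Synb of trophoblast and Ms4a1 of B cells were listed at 0 throughout. In such bulk libraries, fewer cells of a type and less RNA per cell cannot be told apart, and the part of these cell types in the differences below was not tested.

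Among the 8 members that reached the filter, Ptn, Lrp1 and Sdc1 were lower in Ncr1Cre and Ncl was higher, while Mdk, Ptprs, Sdc3 and Sdc4 did not pass the test. Over all genes tested 48.5% were called, 17.6% lower (2071) and 30.9% higher (3638), or 3069 lower and 2632 higher with libraries rescaled to equal medians, so that 4 of 8 called is a share near the background. The median log2 fold change of the 8 was -0.21, beside 0.11 over all genes tested. The value of each of the 4 libraries lay outside the range of the other genotype for 7 of the 8, with 6 lower and 1 higher, where 76.2% of all tested genes did not overlap, 29.9% lower and 46.4% higher.

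**Figure D1:**
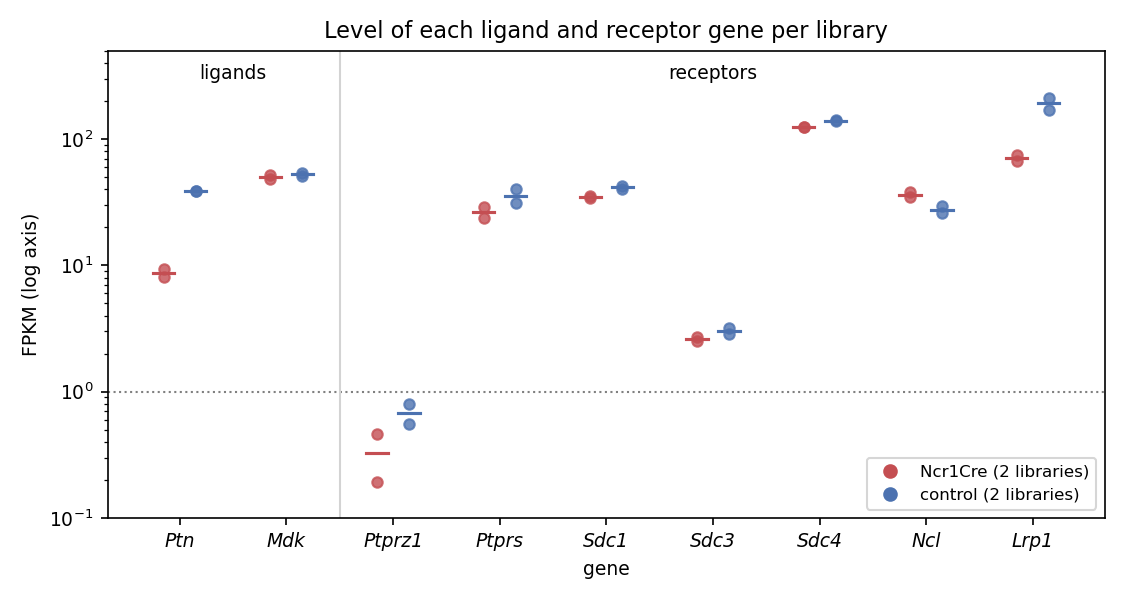
FPKM (log axis) of the ligand and receptor genes, with 1 point per library, Ncr1Cre in red at the left of each pair and control in blue at the right, and a bar at the mean of each 2 libraries. Ptn and Lrp1 stand lower in both Ncr1Cre libraries, Ptprz1 lies under the dotted line at 1 FPKM in all 4 libraries, and Alk is not drawn because it was listed at 0.

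Ptn, the gene of pleiotrophin, stood at 8.04 and 9.28 FPKM in the Ncr1Cre libraries, against 38.7 and 38.6 FPKM in the control libraries. The 2 genotypes were far apart, and the control libraries were nearly equal. The level was 4.46-fold lower in Ncr1Cre, with means of 8.66 ± 0.88 FPKM in Ncr1Cre and 38.6 ± 0.035 FPKM in control (SD, n = 2 each), and limma gave a log2 fold change of -2.04 (SE 0.092, adjusted p = 0.000223). Of all genes tested, 13, or 0.111%, were called lower at least as far, Ptn included. In the same libraries the summed stromal genes were 2.25-fold lower in Ncr1Cre (median log2 fold change -0.96 over 16 genes). The smooth-muscle sum, of which Des made up the most, was 2.75-fold lower, but the median over the 8 tested genes was -2.70 on the log2 scale, further down than Ptn.

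Mdk, the gene of midkine, stood at 51.6 and 48.3 FPKM in the Ncr1Cre libraries, against 54.1 and 50.7 FPKM in the control libraries. The ranges of the genotypes overlapped. Limma gave a log2 fold change of -0.07 (SE 0.075, 95% interval -0.26 to 0.13, adjusted p = 0.498), so a fall of Mdk by as much as that of Ptn lies outside the interval. Mdk passed the test when the libraries were rescaled, with a log2 fold change of -0.23 (limma adjusted p = 0.0488) once library medians were equalized and of -0.24 (0.0461) under quantile normalization. Over its alternatives, its adjusted p lay between 0.0461 and 0.897.

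Since the ligands moved unequally, their mix differed between the genotypes. Ptn made up 13.5% and 16.1% of the summed FPKM of both ligands in the Ncr1Cre libraries, against 41.7% and 43.2% in the control libraries. Mdk was therefore 6.42 and 5.21 times as high as Ptn in the Ncr1Cre libraries, against 1.40 and 1.31 times in the control libraries. The shares did not overlap, with a difference of -27.7 percentage points, and this ratio within a library does not depend on how the library was scaled. The exact two-sided permutation test of 2 against 2 libraries gave p = 0.3333, the smallest it allows.

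**Figure D2:**
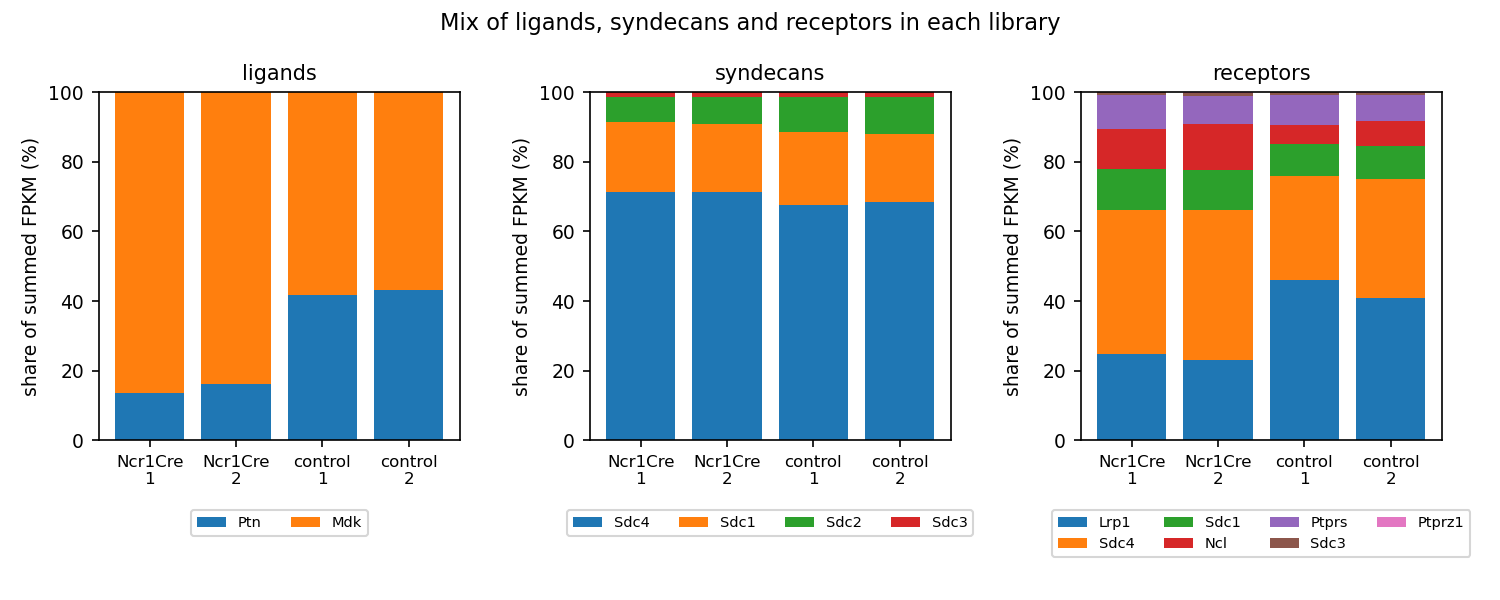
Share of summed FPKM (%) taken by each gene in each of the 4 libraries, Ncr1Cre left of control, for the ligands, the 4 syndecans and the receptor members. Ptn takes 13.5% and 16.1% of the ligand sum in Ncr1Cre against 41.7% and 43.2% in control, and Lrp1 takes a smaller share of the receptor sum in Ncr1Cre.

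The sequences upstream of Ptn and Lrp1 are shown because these were the members with the widest differences. They are the 250 bases before the annotated start in RefSeq, 5′ to 3′ on the strand of the gene, with capitals at matches on either strand to CCAAT (the CCAAT box) or GGGCGG (the GC box). They lie on the minus strand at chr6:36810180-36810429 for Ptn and chr10:127621149-127621398 for Lrp1 of GRCm38.p6, which is not the build of the expression values.
Ptn: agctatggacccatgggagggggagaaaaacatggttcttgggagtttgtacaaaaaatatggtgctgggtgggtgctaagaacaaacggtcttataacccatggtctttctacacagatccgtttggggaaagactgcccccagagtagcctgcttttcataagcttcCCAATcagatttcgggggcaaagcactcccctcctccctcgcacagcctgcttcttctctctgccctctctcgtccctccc
Lrp1: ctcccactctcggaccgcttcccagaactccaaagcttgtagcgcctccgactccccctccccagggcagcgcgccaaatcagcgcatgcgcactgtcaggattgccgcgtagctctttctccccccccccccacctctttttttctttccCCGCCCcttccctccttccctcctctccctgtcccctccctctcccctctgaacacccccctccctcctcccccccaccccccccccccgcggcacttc
The Ptn window held 5 CpG at a G+C content of 52%, which is 0.30 of the CpG expected from its bases. The Lrp1 window held 13 CpG at 67.2%, or 0.75 of those expected. A CCAAT match was in the Ptn window and not in that of Lrp1, and a GC-box match was in the Lrp1 window and not in that of Ptn, where 33.9% and 32.7% of the 32851 windows of RefSeq promoters held them. Windows were found for 9 of the 10 members, with 10 windows because Ptprs had more than 1. Of these members 8 held a GC-box match, 2 a CCAAT match and 1 an E-box match (CACGTG, in 6.02% of windows), and 0 held TATAAA (12.4%). A match in any window of Ptprs counted for it, whereas the percentages are per window. A match is a run of letters and does not show that a factor binds there.

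The genes of PTPRZ1 and ALK, long studied as signalling receptors of pleiotrophin, were at or near 0. Ptprz1, a receptor-type phosphatase of glia and neural precursors, stood at 0.19 and 0.46 FPKM in the Ncr1Cre libraries, against 0.55 and 0.79 FPKM in the control libraries. The genotypes did not overlap, the mean was under the filter and the gene was not tested. Alk, a receptor tyrosine kinase whose direct binding to pleiotrophin has been disputed, was listed at 0 in all 4 libraries. A listed 0 may be a failed estimate, since Gapdh, which every cell uses, had values of 2.25 and 13.3 FPKM in Ncr1Cre against 4.49 and 0 FPKM in control. Gapdh was chosen for this after its values were seen.

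Ptprs, which encodes a receptor phosphatase that binds chondroitin and heparan sulfate through its extracellular part, stood at 29.1 and 23.8 FPKM in the Ncr1Cre libraries, against 39.9 and 31.0 FPKM in the control libraries. The genotypes did not overlap, but the nearest libraries of the genotypes were closer to each other than the 2 libraries of either genotype. The log2 fold change was -0.40 (limma, SE 0.16, 95% interval -0.81 to -0.00, adjusted p = 0.0894). Ptprs passed the test in 5 of 11 alternatives, among them those without replicate 1 of Ncr1Cre (adjusted p = 0.0418) and without replicate 2 of control (0.0440), and its adjusted p ranged from 0.00997 to 0.311.

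The syndecans are transmembrane heparan sulfate proteoglycans that carry ligands to other receptors. Sdc4, the broadly expressed syndecan of focal adhesions, had the highest level of the 3 syndecan members, at 125.1 and 124.4 FPKM in the Ncr1Cre libraries, against 138 and 141 FPKM in the control libraries. Sdc1, the main syndecan of epithelia and plasma cells, stood at 35.4 and 33.9 FPKM in Ncr1Cre, against 42.7 and 40.2 FPKM in control. The 13 listed genes of epithelium were all called higher in the same libraries, and their part in the level of Sdc1 was not tested. Sdc3, the syndecan best known from neurons and muscle, stood at 2.72 and 2.50 FPKM in Ncr1Cre, against 3.16 and 2.83 FPKM in control. For each of them both Ncr1Cre libraries lay below both control libraries, by 1.12-fold to 1.20-fold between the means.

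Of the 3, only Sdc1 passed the limma test, with a log2 fold change of -0.25 (SE 0.073, adjusted p = 0.0383). That call was lost in 6 of 11 alternatives, among them each fit that left out a library, with adjusted p = 0.0839 without replicate 1 of Ncr1Cre, 0.152 without its replicate 2, 0.158 without replicate 1 of control and 0.0754 without its replicate 2. Over its alternatives the adjusted p of Sdc1 ranged from 0.00703 to 0.158. Sdc4 differed by -0.16 (95% interval -0.32 to -0.01, adjusted p = 0.0733) and Sdc3 by -0.15 (95% interval -0.42 to 0.13, adjusted p = 0.312). Sdc4 passed the test in 4 of 11 alternatives, with an adjusted p between 0.0109 and 0.236, and -0.33 on the log2 scale after median rescaling. Sdc3 passed in 0 of 10, with a lowest adjusted p of 0.0573.

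Sdc2, the remaining syndecan and no member here, was lower in Ncr1Cre, at 12.2 and 13.8 FPKM, against 20.4 and 22.1 FPKM in control (log2 fold change -0.67, SE 0.095, limma adjusted p = 0.00432). Sdc4 made up 71.3% of the summed FPKM of the 4 syndecans in both Ncr1Cre libraries, against 67.6% and 68.4% in the control libraries. The share of Sdc2 was 6.95% and 7.88% in Ncr1Cre, against 9.96% and 10.7% in control. The gap of 3.27 percentage points for Sdc4 came to 1.14 over the 3 syndecan members without Sdc2, and the exact permutation test gave p = 0.3333 for each, the smallest possible.

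Ncl, which encodes nucleolin, a nucleolar protein of ribosome synthesis that also binds both ligands at the cell surface, was the only member called higher. It stood at 34.8 and 37.8 FPKM in the Ncr1Cre libraries, against 26.0 and 29.3 FPKM in the control libraries. The genotypes did not overlap, and the log2 fold change was 0.38 (SE 0.092, limma adjusted p = 0.0225). The call was lost after median rescaling (0.22, adjusted p = 0.123) and quantile normalization (0.23, adjusted p = 0.123), which lower the median of all genes by 0.16 on the log2 scale. It was also lost without replicate 2 of Ncr1Cre (adjusted p = 0.0809), without replicate 1 of control (0.0923) and without the filter (0.0999), in a range of 0.0102 to 0.123 over its alternatives.

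Lrp1, which encodes a large endocytic receptor that takes up midkine and many other ligands, stood at 74.4 and 67.0 FPKM in the Ncr1Cre libraries, against 213 and 169 FPKM in the control libraries. The genotypes were apart by more than the spread of the control libraries. The level was 2.70-fold lower in Ncr1Cre, with means of 70.7 ± 5.24 FPKM in Ncr1Cre and 191 ± 31.1 FPKM in control (SD, n = 2 each), and a limma log2 fold change of -1.41 (SE 0.13, adjusted p = 0.00112). Over all genes tested, 61, or 0.519%, were called lower at least as far, Lrp1 included. Lrp1 is also expressed by fibroblasts and smooth muscle, whose tested genes had median log2 fold changes of -0.96 and -2.70 in the same libraries. Lists of other cell types went the other way, among them macrophages and dendritic cells with a median of 1.27. The part of any cell type in the level of Lrp1 was not tested. A noncoding gene on the opposite strand of Lrp1 has no value in the tables, and the strand setting of the counting is not given in the sources used here.

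**Figure D3:**
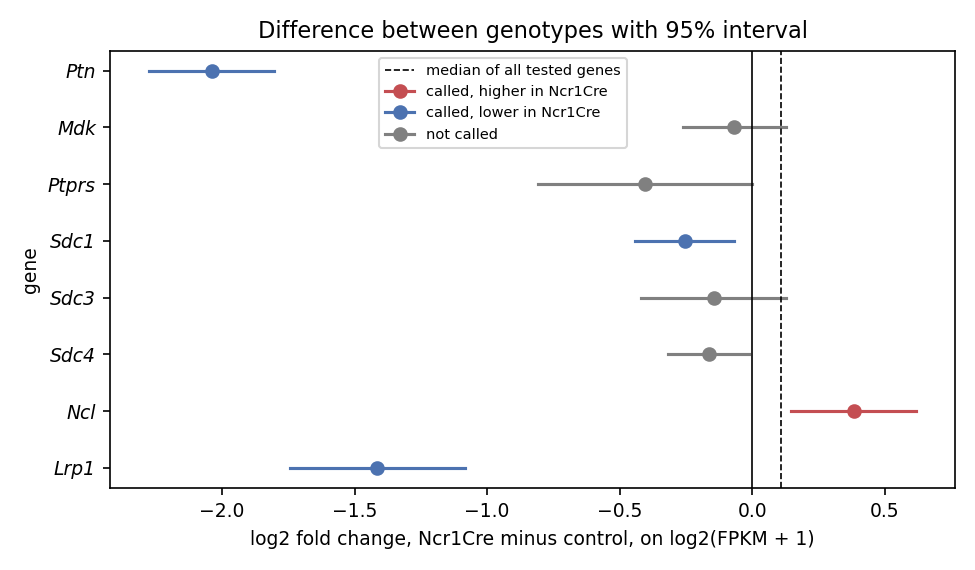
Log2 fold change (Ncr1Cre minus control, on log2(FPKM + 1)) of the 8 tested members, with 95% intervals from limma. Ptn at -2.04 and Lrp1 at -1.41 lie apart from the others, which fall between -0.40 and 0.38, and the dashed line is the median of all tested genes, 0.11.

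The order of the members by level changed with genotype. In Ncr1Cre it was Sdc4, Lrp1, Mdk, Ncl, Sdc1, Ptprs, Ptn, Sdc3, Ptprz1 and Alk. In control it was Lrp1, Sdc4, Mdk, Sdc1, Ptn, Ptprs, Ncl, Sdc3, Ptprz1 and Alk. Neighbours overlapped over the libraries only for Ncl and Sdc1 in Ncr1Cre and for Ptn and Ptprs in control. Lrp1 was 0.60 and 0.54 times as high as Sdc4 in Ncr1Cre, against 1.54 and 1.20 times in control. Its share of the summed FPKM of the 8 receptor members was 24.7% and 23.1% in Ncr1Cre, against 45.9% and 40.8% in control, while that of Sdc4 was 41.5% and 42.9% in Ncr1Cre, against 29.8% and 34.1% in control. The receptor sum itself was 302 and 290 FPKM in Ncr1Cre, against 464 and 414 FPKM in control.

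Other reported binding partners of the ligands moved in both directions. Of 13 listed genes 10 were tested, and 3 were higher and 7 lower in Ncr1Cre (median log2 fold change -0.49), and 1 and 7 under either rescaling. All 10 were thus called in the reported setting, where 48.5% of all genes tested were, 30.9% higher and 17.6% lower. After median rescaling 2632 of all 11762 genes tested were higher and 3069 lower, and after quantile normalization 2615 and 3032. The integrin subunit gene Itga6, of laminin-binding integrins, was higher, at 25.5 and 23.7 FPKM in Ncr1Cre against 6.54 and 6.86 FPKM in control (log2 fold change 1.73, SE 0.084, limma adjusted p = 0.000251). Itga6 is also abundant in epithelium, whose genes were higher in the same libraries, and their part in the level of Itga6 was not tested. The other 2 called higher were Gpc2, a glypican, at 0.49, and Itgav, an integrin subunit, at 0.30 on the log2 scale.

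The genes lower in Ncr1Cre were led by Vcan, which encodes the matrix proteoglycan versican, at 20.7 and 21.0 FPKM against 47.8 and 45.3 FPKM in control (log2 fold change -1.12, SE 0.071, limma adjusted p = 0.000418). The integrin subunit genes Itgb3 and Itgb1 were lower by -0.77 and -0.38, Notch2, a reported midkine receptor in human tumour cells, by -0.71, Sdc2 as given above, the co-receptor gene Nrp1 by -0.52 and the WNT co-receptor gene Lrp6 by -0.46. Itga4 at 0.13 to 0.24 FPKM, Lrp8 at 0.22 to 0.83 FPKM and Cspg5 at 0.12 to 0.74 FPKM over the 4 libraries were under the filter. The count of 10 was 6 without replicate 1 of control, a fit in which 34.8% of all genes were called.

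Among relatives of the receptors, Ptprg, the closest paralog of Ptprz1, was lower, at 6.68 and 5.27 FPKM in Ncr1Cre against 13.4 and 12.5 FPKM in control (log2 fold change -1.01, SE 0.13, limma adjusted p = 0.00290). Ptprf, a paralog of Ptprs, was higher, at 19.2 and 16.4 FPKM in Ncr1Cre against 12.0 and 9.67 FPKM in control (0.67, SE 0.13, adjusted p = 0.0126). The third paralog tested, Ptprd, stood at 1.01 and 0.79 FPKM in Ncr1Cre against 1.33 and 1.36 FPKM in control (-0.31, adjusted p = 0.0891), and passed the test under either rescaling. The Alk relative Ltk, at 0.31 and 0.38 FPKM in Ncr1Cre against 0.12 and 0.050 FPKM in control, and the Lrp1 relative Lrp1b, at 0.0047 and 0.0027 FPKM against 0.011 and 0.0059 FPKM, were under the filter. So was the Lrp1 relative Lrp2, at 0.34 and 0.30 FPKM in Ncr1Cre against 1.17 and 1.01 FPKM in control. The genes of the ALK ligands were near 0 as well, with Fam150a listed at 0 in all 4 libraries and Fam150b at no more than 0.047 FPKM.

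Enzymes that build or trim the heparan and chondroitin sulfate chains, on which the binding of these ligands depends, were lower more often than higher in Ncr1Cre. Of 30 tested genes of 35, 3 were higher and 17 lower, with a median log2 fold change of -0.47, and 2 and 21 under either rescaling. Over all 11762 genes tested, 30.9% were higher and 17.6% lower in the reported setting. After median rescaling 2632 of them were higher and 3069 lower, and after quantile normalization 2615 and 3032. The 2 extracellular sulfatases, which remove sulfate groups from heparan sulfate, were among the lowest. Sulf1 stood at 11.7 and 12.0 FPKM in Ncr1Cre against 34.2 and 33.7 FPKM in control (-1.44, SE 0.072, limma adjusted p = 0.000263), and Sulf2 at 101.6 and 95.4 FPKM in Ncr1Cre against 238 and 212 FPKM in control (-1.18, SE 0.084, adjusted p = 0.000563). Dse, a dermatan sulfate epimerase, and Chsy1, a chondroitin synthase, were lower by -1.07 and -1.20. The stromal genes were lower in the same libraries, and their part in this count was not tested.

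The genes that act on the ligands and receptors by cleavage, its inhibition or chaperoning moved in both directions. Of 9 tested genes of 11, 7 were called (77.8%), where 48.5% of all genes tested were, 30.9% higher and 17.6% lower. The protease genes Mmp7, Plau and Furin were the 3 higher. The 4 lower were the protease genes Mmp2 and Mmp14, the protease inhibitor gene Timp3 and the chaperone gene Lrpap1. Under either rescaling 2 were higher and 5 lower. Lower calls then also outnumbered higher ones over all genes, at 3069 to 2632 after median rescaling and 3032 to 2615 after quantile normalization. Mmp7, an epithelial protease that sheds syndecan-1, was higher, at 136 and 150 FPKM in Ncr1Cre against 27.9 and 30.8 FPKM in control (log2 fold change 2.25, SE 0.087, limma adjusted p = 0.000178). Plau, which encodes the plasminogen activator urokinase, was higher by 0.90. Mmp14, a membrane-bound protease, was lower by -1.45 and Mmp2, which can cleave pleiotrophin, by -1.18. Lrpap1, the chaperone of LRP1 (picked with its values known), had 32.4 and 34.8 FPKM in Ncr1Cre against 43.1 and 42.7 FPKM in control (-0.34, SE 0.072, adjusted p = 0.0150). The ratio of Lrp1 to Lrpap1 was 2.30 and 1.92 in Ncr1Cre, against 4.94 and 3.96 in control.

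Of 15 tested genes of reported PTPRZ substrates and downstream kinases, 8 were called (53.3%), near the 48.5% of all genes tested. By direction 3 were higher and 5 lower, where 30.9% of all genes tested were higher and 17.6% lower. Their median log2 fold change was -0.15, beside 0.11 over all genes tested. Under either rescaling 1 was higher and 7 lower, where lower calls also outnumbered higher ones over all genes. Ctnnb1, the gene of beta-catenin, was higher by 0.57 on the log2 scale, and the adaptor gene Shc1, the adducin gene Add1 and the GTPase-activating protein gene Arhgap35 were lower by -0.88, -0.58 and -0.65. The count of 8 was 5 without replicate 1 of Ncr1Cre (42.8% of all genes called) and 4 without replicate 1 of control.

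**Figure D4:**
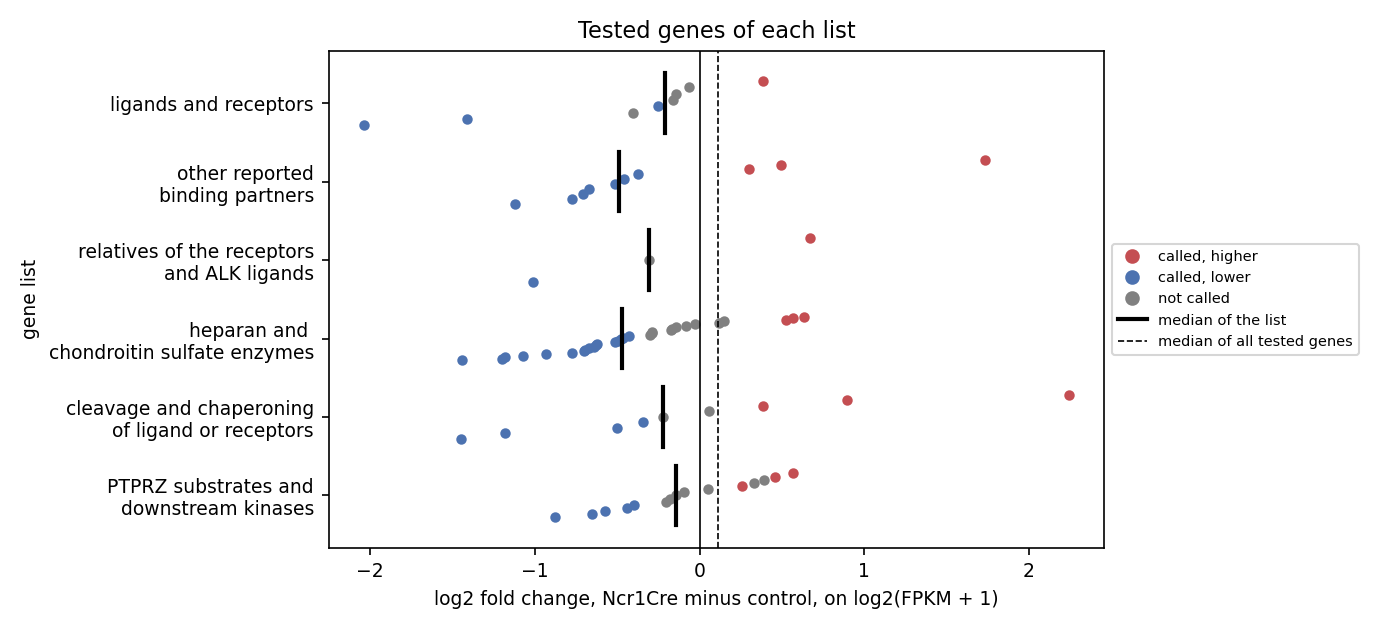
Log2 fold change (Ncr1Cre minus control, on log2(FPKM + 1)) of each tested gene by list, with points coloured by call, a bar at the median of each list and a dashed line at the median of all tested genes. The list of heparan and chondroitin sulfate enzymes has its median at -0.47 and that of other binding partners at -0.49, while the dashed line stands at 0.11.

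By distance over the 4 libraries, on log2(FPKM + 1) centred on each gene, the genes most like Ptn among those tested included Myl9, Postn, Lrrn4 and Upk3b, at distances of 0.033 to 0.29. Postn is also among the stromal genes summed above, while Myl9, Lrrn4 and Upk3b are in none of the cell-type lists used here. The nearest, Myl9, a regulatory myosin light chain of smooth muscle, stood at 11.1 and 12.5 FPKM in Ncr1Cre against 52.5 and 52.3 FPKM in control. Postn, which encodes the matrix protein periostin, stood at 451 and 494 FPKM in Ncr1Cre against 1584 and 1743 FPKM in control. The 5 genes most like Mdk were Btaf1, Mkl1, Cep350, Os9 and Mtmr4, at distances of 0.012 to 0.020, none of them called. With 2 libraries per genotype, such likeness describes mainly the gap between the genotypes.

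**Figure D5:**
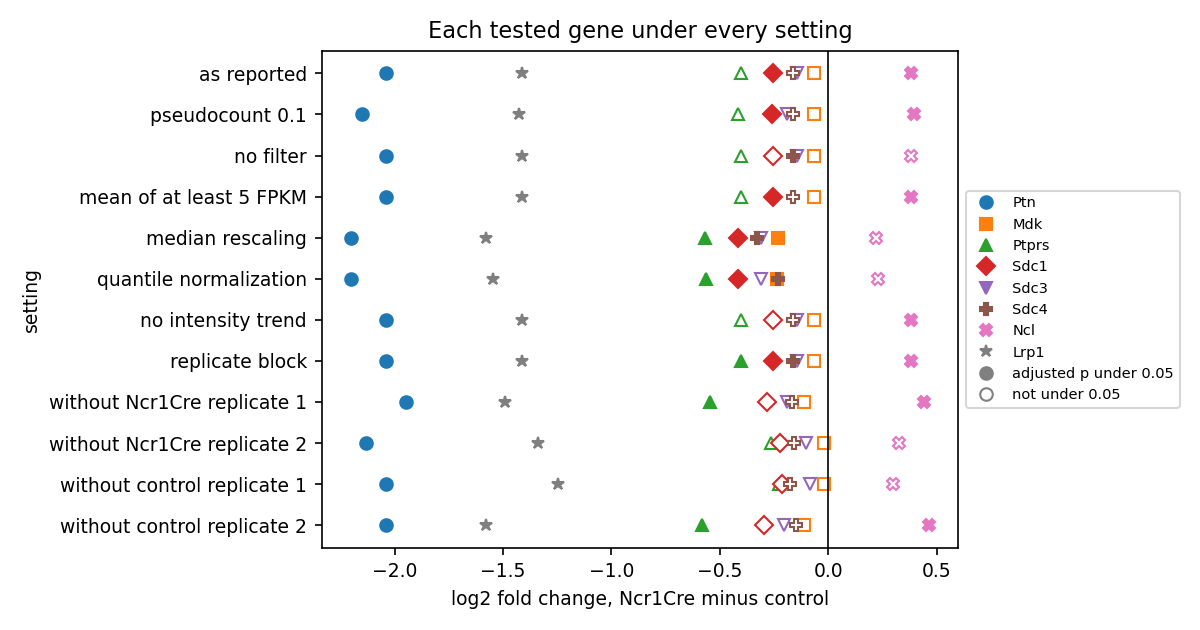
Log2 fold change (Ncr1Cre minus control) of each tested member under the reported setting and 11 alternatives, filled where the adjusted p is under 0.05. Ptn and Lrp1 are filled in every setting, Sdc3 is open wherever it was tested, and the other 5 are filled in some settings and open in others.

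Ptn and Lrp1 were called in 11 of 11 alternatives, with log2 fold changes between -2.20 and -1.95 for Ptn and between -1.58 and -1.25 for Lrp1, as the plot of every setting shows. The count of called members was 2 without replicate 2 of Ncr1Cre and 2 without replicate 1 of control, these being Ptn and Lrp1, where 41.8% and 34.8% of all genes were called. It was 6, all lower, after median rescaling (48.5% of all genes called) and after quantile normalization (48% called), and 6, of which 1 higher, with the replicate number as a block (51% called), which added Ptprs and Sdc4. Without the filter, where 17.9% of all genes were called, it was 3 of 10, these being Ptn, Lrp1 and Sdc4.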

How the data were processed

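The authors deposited 1 table per library with a symbol and an FPKM value for each of 21993 genes, and the submitters' processing notes name Cufflinks and mm9. The aligner, the annotation and the handling of reads with several mapping places were not given in the sources used here. Dates in place of 27 symbols were replaced through the gene identifiers. The gene that carries the floxed allele and 1 gene of the nearest profiles are not reported here.

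Library totals were estimated from steps in low FPKM values of genes with 1 transcript, of which 40.3% to 45.8% came out whole within 0.02 fragments. With most values not whole, no count test was made on them. Replicates differed by more than sampling noise (median chi-square 2.21 in Ncr1Cre and 2.08 in control, where sampling alone gives 0.455), which errors in lengths also raise, and were counted separately.

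The test was limma 3.58.1 in R 4.3.3 with an intensity trend, two-sided, checked on simulated data. Named genes are the members, the 2 short lists, the 4 smallest p of longer lists, sort markers, leading markers and nearest profiles. Members and lists were chosen with earlier results of these data known, so they are not independent evidence. Alternatives were another pseudocount, 2 filters, 2 scalings, no trend, the replicate block and leaving out each library.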

Additional observations from a re-analysis of the deposited data

How the results depend on the processing

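The count of 5709 called genes lay between 3941 and 6004 over the alternatives, and the share called higher turned with scaling, being 3638 higher to 2071 lower as reported, 2632 to 3069 with medians equalized and 2615 to 3032 with quantiles equalized. The count of 4 called members was 2 to 4 when a library was left out, 6 after either rescaling (48.5% and 48% of all genes called) and 6 with the replicate block (51% of all genes), which added Ptprs (adjusted p = 0.00997) and Sdc4 (0.0409) by limma. What the replicate numbers mark is not stated in the labels, and the replicate differences of the genotypes correlated at 0.16 over genes, which does not settle whether the numbers pair the libraries. Without the filter, 12 sulfate enzymes and 4 PTPRZ substrates or kinases were called, and with a library left out 6 to 8 binding partners and 4 to 6 substrates or kinases. The counts without the filter were out of 35 enzymes (34.3%) and 15 substrates or kinases (26.7%), where 17.9% of all genes were called. With a library left out, the counts were out of 10 binding partners and 15 substrates or kinases. In each of those fits the share called over all genes was also below the 48.5% of the reported setting. The Sdc4 gap was 1.14 percentage points over the syndecan members alone. No direction of a tested member turned under any alternative. A library left alone in its group was assumed to vary like the others. At 0.0259 to 0.0473 FPKM for 1 fragment on 1 kb, values far below 1 FPKM rest on few fragments unless the transcript is long.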
